A study of Mus musculus with 12 samples.

Results

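Retinoid handling was examined through 9 mouse genes, chosen by symbol: the retinaldehyde dehydrogenases Aldh1a1, Aldh1a2 and Aldh1a3, the Aldh1a1 paralog Aldh1a7, the retinoic acid binding protein Crabp2, the nuclear receptors Rara, Rarb and Rxra, and the retinol transporter Stra6. All 9 were found among 15720 gene identifiers. They were measured in EMS404 cells, a line of C57Bl6 mouse hepatic stellate cells immortalised with SV40 and expressing human TLR4, features that every group shared. The 4 groups of 3 libraries were cells given Bmal1 siRNA and TGFb (10 ng/mL), scrambled siRNA and TGFb, Bmal1 siRNA and vehicle, and scrambled siRNA and vehicle. TGFb was added 48 h after transfection and left for 24 h. Total RNA was sequenced. Values are FPKM, that is fragments per kilobase of transcript scaled to the size of the library, so that levels of different genes can be set side by side per length. The design addressed how the core clock gene Bmal1 and TGFb together set the transcriptome of a stellate cell line.

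Quiescent stellate cells are the main vitamin A store of the liver and lose that store as they turn into collagen-producing myofibroblasts, a change that TGFb promotes. Retinol enters cells from its plasma carrier through Stra6 and is oxidised reversibly to retinaldehyde. Aldh1a enzymes then oxidise retinaldehyde irreversibly to retinoic acid. Crabp2 carries retinoic acid to receptors of the Rar family, which bind DNA as heterodimers with Rxr proteins, and Rarb is itself a classic retinoic acid target gene. Aldh1a7 is a rodent paralog reported to have little activity on retinaldehyde.

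The gene targeted by the siRNA was lower with it under both treatments. Arntl, which encodes Bmal1, had 5.05, 4.01 and 4.0 FPKM with Bmal1 siRNA and TGFb, against 10.5, 10.75 and 10.86 FPKM with scrambled siRNA and TGFb, so the mean fell by 59.3% (limma, adjusted p = 1.38e-06). Under vehicle it had 3.9, 3.87 and 3.59 FPKM with Bmal1 siRNA, against 5.43, 5.19 and 4.91 FPKM with scrambled siRNA, and the mean fell by 26.9% (adjusted p = 0.049). FPKM totals were 445472 to 483957 per library, and no read numbers were at hand from which to state a counting error. Within groups the Pearson correlation of log2(FPKM + 1) between libraries was 0.9957 to 0.999. The group with Bmal1 siRNA and TGFb was the least even: its replicate 2 lay at 5.1 on the first principal component, against -13.0 and -8.4 for replicates 1 and 3. That component held 71% of the variance. Of 15 stellate markers 13 were found by symbol, all but Lrat and Reln, and 6 of these had a mean of at least 0.5 FPKM. They were Lhx2 (13.09 to 15.61 FPKM), Hand2 (77.08 to 134.97 FPKM), Ecm1 (64.91 to 100.68 FPKM), Pdgfrb (10.35 to 30.86 FPKM), Cygb (11.2 to 16.92 FPKM) and Des (0.52 to 1.23 FPKM). The rest were lower. Lhx1 stayed at or below 0.6 FPKM, Hgf 0.42, Rgs5 0.24, Ngfr 0.23, Colec11 0.22, Gfap 0.04 and Vipr1 0.01 FPKM. Mesothelial markers were also expressed, with Upk3b at 31.06 to 193.25 FPKM and Wt1 at 19.18 to 32.9 FPKM. Defining markers of hepatocytes (Hnf4a, at most 0.01 FPKM), cholangiocytes (Epcam, at most 0.28 FPKM), endothelium (Pecam1, at most 0.13 FPKM) and leukocytes (Lyz2, at most 0.15 FPKM) were near 0. Other members of the same lists were expressed. They were Trf (40.48 to 240.06 FPKM) and Ass1 (5.24 to 36.3 FPKM) of the hepatocyte list and Tek (0.96 to 3.09 FPKM) of the endothelial list. Of the cholangiocyte list they were Spp1 (66.77 to 215.26 FPKM), Krt19 (1.39 to 5.61 FPKM), Sox9 (1.22 to 3.61 FPKM) and Krt7 (0.41 to 2.74 FPKM). Cd68 of the leukocyte list had 2.63 to 4.71 FPKM.

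Promoter windows, the 250 bases before each RefSeq start on GRCm38.p6, were matched for 7 of the 9 genes, all but Aldh1a3 and Crabp2, in 15 windows. Aldh1a1 has 2 windows. The one at its internal start is shown beside that of its paralog Aldh1a7 because it is the more alike. Whether this likeness bears on expression was not tested. The window at the first start, at 20492333 to 20492582, had 53.4% identity and a longest shared run of 8 bases. The genes Aldh1a1 and Aldh1a7 (ENSMUSG00000053279 and ENSMUSG00000024747) lie on opposite strands of chromosome 19 (mm10). They stand at 20492715 to 20643465 and 20692953 to 20727562, with 49487 bases between them. Capitals mark the longest run the windows share, 65 bases that start 94 bases before the start site in both.
Aldh1a1, chr19:20601718-20601967 (+ strand): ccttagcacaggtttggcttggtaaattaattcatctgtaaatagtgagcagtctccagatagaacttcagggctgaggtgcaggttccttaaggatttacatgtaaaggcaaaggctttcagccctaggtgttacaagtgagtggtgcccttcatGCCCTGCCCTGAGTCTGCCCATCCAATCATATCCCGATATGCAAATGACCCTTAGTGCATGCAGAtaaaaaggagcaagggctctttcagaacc
Aldh1a7, chr19:20727557-20727806 (- strand): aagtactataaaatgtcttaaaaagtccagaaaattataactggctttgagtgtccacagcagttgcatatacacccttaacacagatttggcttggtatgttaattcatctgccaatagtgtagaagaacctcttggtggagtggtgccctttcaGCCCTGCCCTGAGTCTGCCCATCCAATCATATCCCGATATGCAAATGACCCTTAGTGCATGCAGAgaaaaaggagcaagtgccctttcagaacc

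Of 235 aligned bases between those windows 173 were identical (73.6%), and the shared run was found in 2 of 32851 mouse promoter windows, these same ones. The run holds the octamer ATGCAAAT 56 bases before both starts, a motif found on either strand in 1.60% of windows and also 84 bases before the Aldh1a2 start. The 2 transcripts are alike as well: their open reading frames, 1506 bases each, were identical at 1380 positions (91.6%), against 67.4% to 68.9% for pairs that involve Aldh1a2 or Aldh1a3. Of the 50-base windows in the Aldh1a7 transcript 7.5% were found in Aldh1a1, and of the 100-base windows 0.1%. Reads that lie in such stretches can be assigned to either gene, so the Aldh1a7 values carry that uncertainty.

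The Rarb window is shown because it holds the direct repeat that retinoic acid receptors bind, in capitals, 52 bases before the start.
Rarb, chr14:16575477-16575726 (- strand): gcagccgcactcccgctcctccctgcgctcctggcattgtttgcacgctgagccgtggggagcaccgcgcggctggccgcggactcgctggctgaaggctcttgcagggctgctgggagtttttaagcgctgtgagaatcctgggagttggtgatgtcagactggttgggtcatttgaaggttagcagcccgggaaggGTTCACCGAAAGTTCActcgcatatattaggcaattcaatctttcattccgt

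The form searched, a pair of GTTCA with any 6 bases between them on either strand, was present in 22 of 32851 windows (0.0670%) and among these genes in that of Rarb. Other motifs were common in promoters in general. AGGTCA, the core that many nuclear receptors bind, stood in a window of Rxra and in 14.0% of all windows, the E-box CACGTG of clock transcription factors in a window of Rara and in 6.02% of all, and the Smad motif CAGACA in a window of Stra6 and in 17.1% of all. A match describes letters in a window and not binding. On mm10 the other genes lie on chromosome 9 at 71215789 to 71296243 (Aldh1a2) and 58063788 to 58153996 (Stra6), chromosome 7 at 66390890 to 66427517 (Aldh1a3), chromosome 3 at 87948666 to 87953376 (Crabp2) and chromosome 11 at 98927818 to 98974942 (Rara). Rarb lies on chromosome 14 at 16430839 to 16819156 and Rxra on chromosome 2 at 27676440 to 27762957. FPKM was given per gene, so no value refers to a single start site.

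Levels differed widely between the genes. In cells with scrambled siRNA and vehicle the order by mean FPKM was Rara (35.57), Aldh1a1 (31.89), Rxra (29.43), Aldh1a7 (3.02), Crabp2 (0.287), Aldh1a3 (0.1), Rarb (0.0467), Stra6 (0.0433) and Aldh1a2 (0.0167). Neighbours in this order did not overlap in their library ranges, except Rarb and Stra6. Rara stood above 84% of all genes in these libraries, Aldh1a1 above 82.4% and Rxra above 81%, whereas Stra6 stood above 17.9% and Aldh1a2 above 12.8%. A mean of at least 0.5 FPKM was required for testing, which Aldh1a1, Aldh1a7, Crabp2, Rara and Rxra reached, and Aldh1a2, Aldh1a3, Rarb and Stra6 did not. Crabp2 passed through the cells with scrambled siRNA and TGFb, since its mean without them was 0.398 FPKM. Aldh1a7 passed through the vehicle cells, with a mean of 0.483 FPKM in TGFb cells and 3.77 FPKM in vehicle cells.

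**Figure D1:**
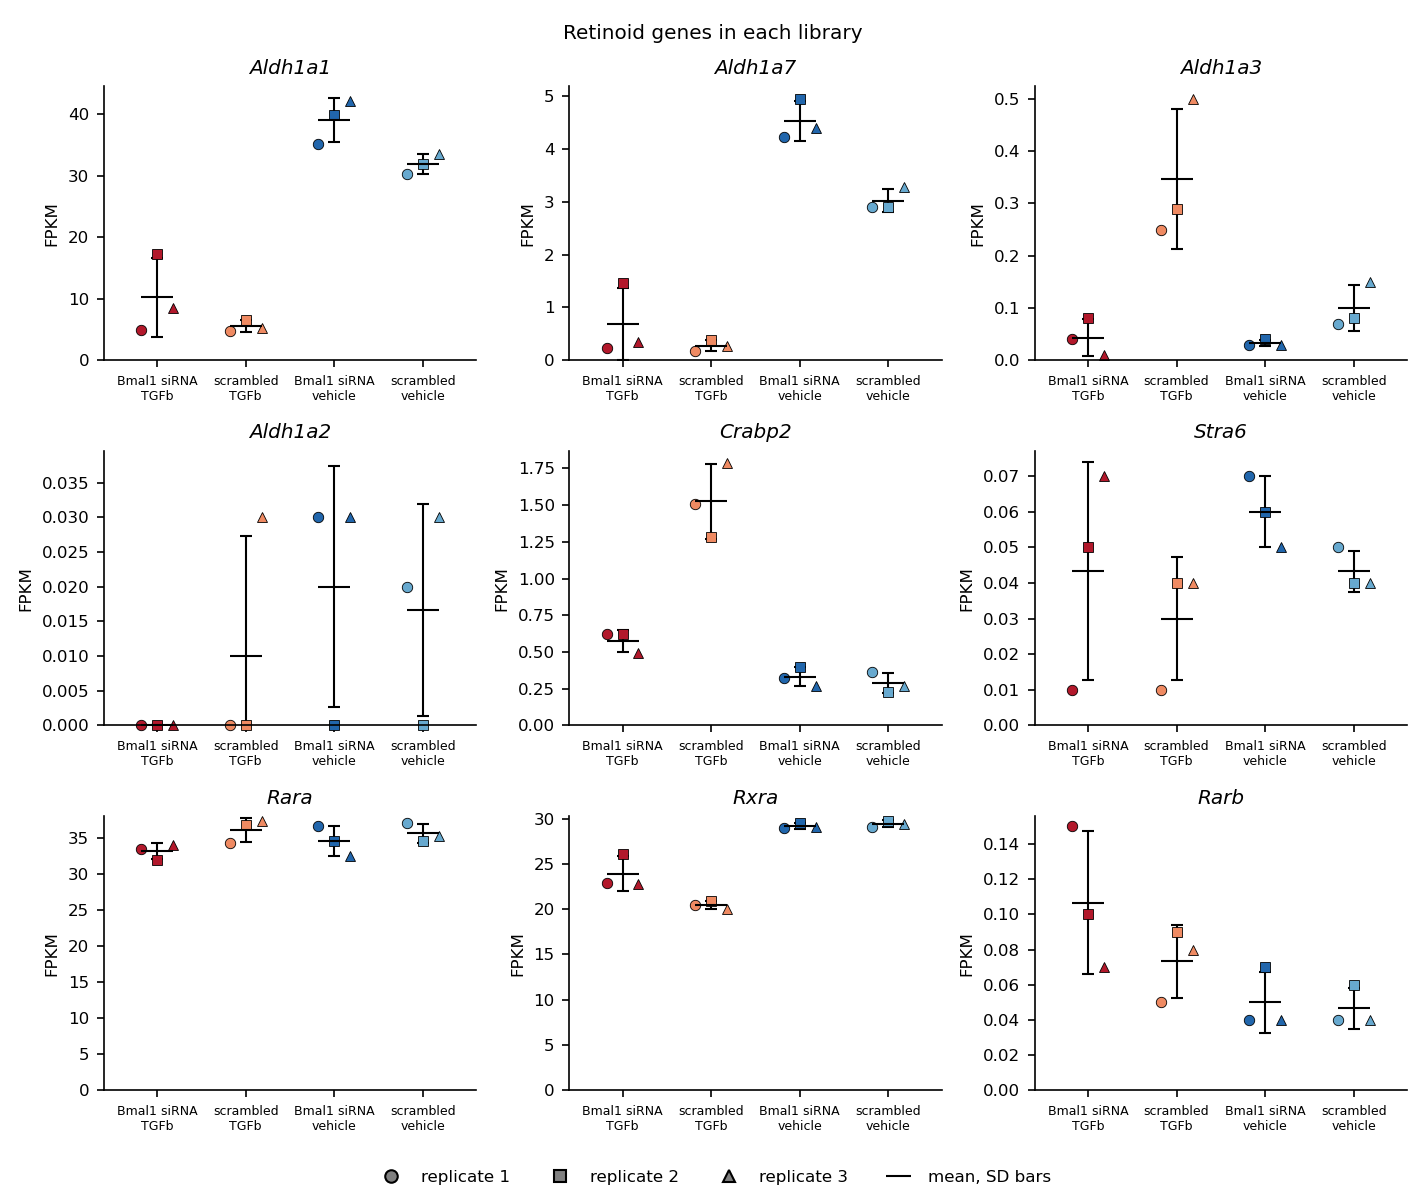
FPKM (y axis, from 0, scaled per gene) of the 9 retinoid genes in each library of the 4 groups (x axis); symbols are replicates, lines are means and bars are SD. Aldh1a1 lies between 4.77 and 17.33 FPKM in the TGFb libraries and between 30.27 and 42.13 FPKM in the vehicle libraries, and Crabp2 is highest, at 1.28 to 1.79 FPKM, with scrambled siRNA and TGFb.

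Aldh1a1, the enzyme of retinoic acid synthesis with the highest level in these cells, fell under TGFb with either siRNA. With Bmal1 siRNA it had 4.92, 17.33 and 8.44 FPKM under TGFb, against 35.12, 39.83 and 42.13 FPKM under vehicle. With scrambled siRNA it had 4.77, 6.60 and 5.29 FPKM under TGFb, against 30.27, 31.90 and 33.49 FPKM under vehicle. The groups did not overlap in either comparison, and replicate 2 with Bmal1 siRNA and TGFb stood above the other 5 TGFb libraries. Mean levels were 10.23 ± 6.4 FPKM under TGFb and 39.03 ± 3.57 FPKM under vehicle with Bmal1 siRNA (SD, n = 3 each), so the mean fell by 73.8%. With scrambled siRNA they were 5.553 ± 0.943 FPKM under TGFb and 31.89 ± 1.61 FPKM under vehicle, and the mean fell by 82.6%. In the limma fit the log2 change of (FPKM + 1) was -1.99 (SE 0.277, 95% interval -2.58 to -1.39, adjusted p = 0.000435) with Bmal1 siRNA and -2.34 (-2.94 to -1.74, adjusted p = 1.71e-05) with scrambled siRNA. All adjusted p-values are from this fit, Benjamini-Hochberg adjusted over 11208 genes, and a gene was called under 0.05. In bulk RNA, fewer cells that express a gene and less RNA per cell cannot be told apart.

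Aldh1a7 fell under TGFb with either siRNA too. With Bmal1 siRNA it had 0.24, 1.47 and 0.35 FPKM under TGFb, against 4.22, 4.94 and 4.40 FPKM under vehicle. Cells with scrambled siRNA had 0.18, 0.38 and 0.28 FPKM under TGFb, against 2.90, 2.89 and 3.27 FPKM under vehicle. No TGFb library reached the lowest vehicle library, and replicate 2 with Bmal1 siRNA and TGFb was again the highest under TGFb. The mean fell by 84.8% with Bmal1 siRNA (log2 change -1.78, 95% interval -2.19 to -1.37, adjusted p = 7.53e-05) and by 90.7% with scrambled siRNA (log2 change -1.65, 95% interval -2.06 to -1.24, adjusted p = 1.3e-05). At these levels the added 1 FPKM compresses the log2 change: with 0.1 FPKM added in its place it was -2.89 with Bmal1 siRNA and -3.07 with scrambled siRNA, and with 5 FPKM added -0.75 and -0.60.

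The summed level of both paralogs, which depends less on how reads were split between them, was 5.16, 18.8 and 8.79 FPKM with Bmal1 siRNA and TGFb, against 39.34, 44.77 and 46.53 FPKM with Bmal1 siRNA and vehicle. With scrambled siRNA the sum was 4.95, 6.98 and 5.57 FPKM under TGFb, against 33.17, 34.79 and 36.76 FPKM under vehicle. Fitted as a single gene the sum fell by 2.07 on the log2 scale with Bmal1 siRNA (adjusted p = 0.000413) and by 2.40 with scrambled siRNA (adjusted p = 1.77e-05). The share of Aldh1a7 was lower too. It had 4.88, 8.48 and 4.15% of the Aldh1a1 level with Bmal1 siRNA and TGFb, against 12.02, 12.4 and 10.44% with Bmal1 siRNA and vehicle. With scrambled siRNA it had 3.77, 5.76 and 5.29% under TGFb, against 9.58, 9.06 and 9.76% under vehicle. Every TGFb library was below every vehicle library in this ratio, which was not tested.

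Mesothelial markers moved in the same direction as the paralogs. The summed level of 10 such genes was 173, 277.2 and 202 FPKM with Bmal1 siRNA and TGFb, against 453.4 to 488.6 FPKM with Bmal1 siRNA and vehicle. It was 171.9 to 216.4 FPKM with scrambled siRNA and TGFb, against 400.9 to 464.2 FPKM with scrambled siRNA and vehicle. Of 9 tested, 7 fell and none rose with Bmal1 siRNA, where 10.1% of all tested genes fell and 8.90% rose. With scrambled siRNA 8 of the 9 fell and 1, Msln, rose, where 29.1% of all tested genes fell and 16.4% rose. The sum of 7 myofibroblast genes ran the other way, at 4484, 3978 and 4509 FPKM with Bmal1 siRNA and TGFb, against 3452 to 3560 FPKM with Bmal1 siRNA and vehicle, and at 5234 to 5440 FPKM with scrambled siRNA and TGFb, against 3217 to 3399 FPKM with scrambled siRNA and vehicle. Col1a1, at 2716.13 to 4222.06 FPKM, made up most of this sum in every library. Of the 7 genes, 5 rose and none fell with Bmal1 siRNA, and 6 rose and none fell with scrambled siRNA. Replicate 2 with Bmal1 siRNA and TGFb had the highest mesothelial and the lowest myofibroblast sum of the TGFb libraries. Col3a1 of the myofibroblast list was nevertheless highest in that library, at 228.13 FPKM. Other lists shifted too. The hepatocyte sum, mostly Trf, was 61.48 to 114.3 FPKM under TGFb and 211.4 to 246.5 FPKM under vehicle with Bmal1 siRNA. With scrambled siRNA it was 70.51 to 93.13 FPKM and 196.5 to 217 FPKM, while Ass1 of that list rose with either siRNA. The cholangiocyte sum, mostly Spp1, was at least 100.5 FPKM in TGFb libraries and at most 89.47 FPKM in vehicle libraries. The part of cell state in the changes of Aldh1a1 and Aldh1a7 was not tested.

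**Figure D2:**
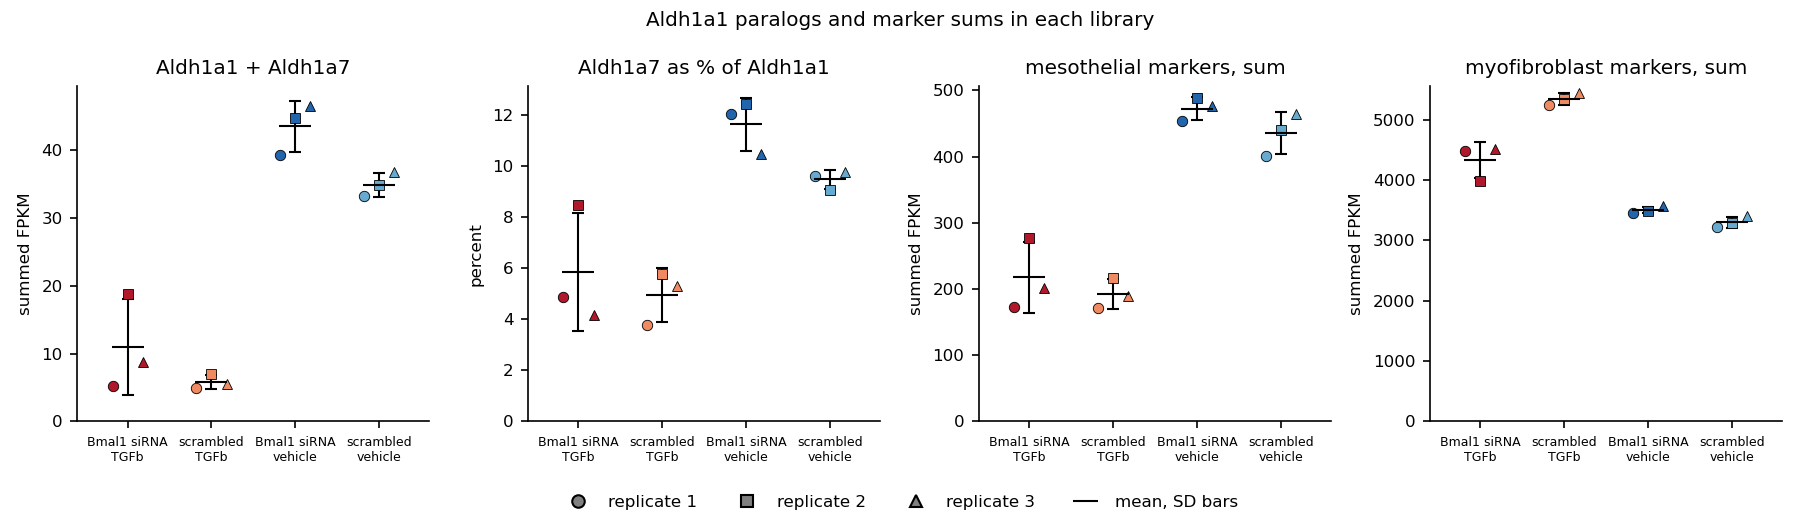
Summed FPKM of Aldh1a1 and Aldh1a7, Aldh1a7 as percent of Aldh1a1, and summed FPKM of mesothelial and myofibroblast markers (y axes, from 0) in each library of the 4 groups; symbols are replicates, lines means and bars SD. The paralog sum and the mesothelial sum are lower in every TGFb library than in every vehicle library, and replicate 2 with Bmal1 siRNA and TGFb (18.8 FPKM and 277.2 FPKM) is the highest of the TGFb libraries in both.

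Differences between siRNAs in these paralogs did not pass the test. Under TGFb the mean of Aldh1a1 was 10.23 FPKM with Bmal1 siRNA and 5.553 FPKM with scrambled siRNA, but the groups overlapped and the log2 difference of 0.63 (95% interval 0.03 to 1.23) had an adjusted p of 0.116. It rested on replicate 2 with Bmal1 siRNA: without that library the difference was 0.20 (adjusted p = 0.424), and without replicate 1 of the same group it was 1.01 and was called (adjusted p = 0.0034). Under vehicle the Aldh1a1 groups did not overlap, at 35.12 to 42.13 FPKM with Bmal1 siRNA and 30.27 to 33.49 FPKM with scrambled siRNA, and the log2 difference of 0.28 was not called (95% interval -0.32 to 0.88, adjusted p = 0.57). Aldh1a7 under vehicle was at 4.22 to 4.94 FPKM with Bmal1 siRNA and 2.89 to 3.27 FPKM with scrambled siRNA, also without overlap. Its log2 difference of 0.46 (95% interval 0.04 to 0.87) had an adjusted p of 0.195, and without replicate 2 with Bmal1 siRNA and TGFb, whose spread enters the shared error, 0.0196. Under TGFb Aldh1a7 differed by 0.33 (95% interval -0.08 to 0.74, adjusted p = 0.228). The difference in TGFb response between siRNAs was 0.35 for Aldh1a1 (95% interval -0.50 to 1.20, adjusted p = 0.597) and -0.13 for Aldh1a7 (95% interval -0.71 to 0.45, adjusted p = 0.795). Without replicate 2 with Bmal1 siRNA and TGFb these were -0.08 (adjusted p = 0.839) and -0.44 (adjusted p = 0.0332).

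The remaining retinaldehyde dehydrogenases were scarce. Aldh1a3 had 0.04, 0.08 and 0.01 FPKM with Bmal1 siRNA and TGFb and 0.25, 0.29 and 0.50 FPKM with scrambled siRNA and TGFb, against 0.03, 0.04 and 0.03 FPKM with Bmal1 siRNA and vehicle and 0.07, 0.08 and 0.15 FPKM with scrambled siRNA and vehicle. The scrambled siRNA cells under TGFb stood above all other libraries. In a fit of all 15720 genes with no filter on low values Aldh1a3 was higher under TGFb with scrambled siRNA (log2 change 0.29, adjusted p = 0.00296), where 34.0% of genes were called. In the same fit it was lower with Bmal1 than with scrambled siRNA under TGFb (log2 difference -0.36, adjusted p = 0.00243), where 15.3% were called. Its TGFb response did not pass the test of a difference between siRNAs (-0.27, adjusted p = 0.065). Aldh1a2 was listed at 0 to 0.03 FPKM in every library and was not called in that fit.

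Crabp2 rose under TGFb in cells with scrambled siRNA, and its change with Bmal1 siRNA was smaller. With Bmal1 siRNA it had 0.62, 0.62 and 0.49 FPKM under TGFb, against 0.32, 0.40 and 0.27 FPKM under vehicle. With scrambled siRNA it had 1.51, 1.28 and 1.79 FPKM under TGFb, against 0.36, 0.23 and 0.27 FPKM under vehicle. All 3 libraries with scrambled siRNA and TGFb exceeded all other libraries, and the libraries with Bmal1 siRNA and TGFb lay above all vehicle libraries. With Bmal1 siRNA the mean was 0.577 ± 0.0751 FPKM under TGFb and 0.33 ± 0.0656 FPKM under vehicle, a difference of 74.7% that was not called (SD, n = 3 each). With scrambled siRNA it was 1.527 ± 0.255 FPKM under TGFb and 0.287 ± 0.0666 FPKM under vehicle, 5.33-fold.

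The log2 change of Crabp2 under TGFb was 0.25 with Bmal1 siRNA (95% interval 0.06 to 0.43, adjusted p = 0.068) and 0.97 with scrambled siRNA (95% interval 0.78 to 1.16, adjusted p = 1.58e-06). The difference between these responses was -0.72 (SE 0.124, 95% interval -0.99 to -0.46, adjusted p = 0.00235). Under TGFb the level was lower with Bmal1 than with scrambled siRNA by a log2 difference of -0.68 (95% interval -0.87 to -0.49, adjusted p = 0.000164). Under vehicle it was 0.05 (95% interval -0.14 to 0.24, adjusted p = 0.773). Crabp2 entered the test through the group where it was high; in the fit of all 15720 genes, with no filter, the difference between responses was again -0.72 (adjusted p = 0.00224). The called changes held in every alternative that tested Crabp2, and their size depended on the pseudocount: the difference between responses ran to -1.42 with 0.1 FPKM added and -0.24 with 5 FPKM added. With 0.1 FPKM added the change under TGFb with Bmal1 siRNA was 0.66 and was called (adjusted p = 0.0365). That change was called in 4 of 13 alternatives that kept or altered more than 1 library, and in 0 of the 12 fits that left out 1.

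The levels of Aldh1a1 and Crabp2 thus ran in opposite directions. Per library Aldh1a1 was 7.9, 28.0 and 17.2 times the level of Crabp2 with Bmal1 siRNA and TGFb and 3.2, 5.2 and 3.0 times with scrambled siRNA and TGFb, against 109.7, 99.6 and 156.0 times with Bmal1 siRNA and vehicle and 84.1, 138.7 and 124.0 times with scrambled siRNA and vehicle. Stra6, the retinol transporter of the plasma membrane, was at 0.01 to 0.07 FPKM in all libraries, with overlapping groups in each comparison.

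Among the receptors Rxra, the common heterodimer partner, fell under TGFb with either siRNA. With Bmal1 siRNA it had 22.87, 26.13 and 22.79 FPKM under TGFb, against 28.99, 29.56 and 29.05 FPKM under vehicle. Cells with scrambled siRNA had 20.48, 20.88 and 20.07 FPKM under TGFb, against 29.04, 29.79 and 29.46 FPKM under vehicle. The groups did not overlap, and the libraries with scrambled siRNA and TGFb were below all others. The mean fell by 18% with Bmal1 siRNA (log2 change -0.28, 95% interval -0.39 to -0.17, adjusted p = 0.00255) and by 30.4% with scrambled siRNA (log2 change -0.50, 95% interval -0.61 to -0.39, adjusted p = 5.02e-06).

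Under TGFb Rxra was higher with Bmal1 siRNA (23.93 ± 1.91 FPKM) than with scrambled siRNA (20.48 ± 0.405 FPKM; SD, n = 3 each), with a log2 difference of 0.21 (95% interval 0.10 to 0.32, adjusted p = 0.0108). The call ended under median-of-ratios scaling (0.15, adjusted p = 0.0558) and where those 2 groups alone were fitted (adjusted p = 0.0613). Under vehicle the log2 difference of Rxra was -0.01 (95% interval -0.12 to 0.10, adjusted p = 0.922), and 0.02 with scaling to equal totals. The TGFb response differed between siRNAs by 0.22 (95% interval 0.06 to 0.38, adjusted p = 0.0598), a difference called without replicate 1 with Bmal1 siRNA and TGFb (0.25, adjusted p = 0.0401) and with array weights (0.18, adjusted p = 0.0104).

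Rara, a ligand-activated receptor for retinoic acid, passed no test. It had 33.40, 31.89 and 34.00 FPKM with Bmal1 siRNA and TGFb and 34.19, 36.74 and 37.25 FPKM with scrambled siRNA and TGFb, against 36.58, 34.49 and 32.51 FPKM with Bmal1 siRNA and vehicle and 36.98, 34.51 and 35.22 FPKM with scrambled siRNA and vehicle. TGFb and vehicle libraries overlapped with either siRNA, and the log2 changes were -0.06 with Bmal1 siRNA (95% interval -0.17 to 0.06) and 0.02 with scrambled siRNA (95% interval -0.10 to 0.13). Under TGFb the groups did not overlap between siRNAs, and the log2 difference of -0.12 (95% interval -0.24 to -0.00) had an adjusted p of 0.122. It was called under median-of-ratios scaling (-0.19, adjusted p = 0.0277). The ratio of Rara to Rxra was 1.46, 1.22 and 1.49 with Bmal1 siRNA and TGFb and 1.67, 1.76 and 1.86 with scrambled siRNA and TGFb, against 1.26, 1.17 and 1.12 with Bmal1 siRNA and vehicle and 1.27, 1.16 and 1.2 with scrambled siRNA and vehicle.

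Rarb, the receptor gene that retinoic acid induces in many cells, was near the bottom of the scale. It had 0.15, 0.10 and 0.07 FPKM with Bmal1 siRNA and TGFb and 0.05, 0.09 and 0.08 FPKM with scrambled siRNA and TGFb, against 0.04, 0.07 and 0.04 FPKM with Bmal1 siRNA and vehicle and 0.04, 0.06 and 0.04 FPKM with scrambled siRNA and vehicle. It was not called with the filter removed (adjusted p = 0.0812 for TGFb with Bmal1 siRNA, the lowest of the 4 comparisons). The gene shares 1793 exon bases with Top2b on the opposite strand and 227 with the antisense gene Gm48162, and strand use is not stated, so some of these reads may belong to either partner. Among other retinoic acid and Rxr receptor genes, Rarg was at 95.17 ± 5.84 FPKM with Bmal1 siRNA and TGFb and 92.94 ± 1.04 FPKM with scrambled siRNA and TGFb, against 83.1 ± 1.72 FPKM with Bmal1 siRNA and vehicle and 89 ± 4.38 FPKM with scrambled siRNA and vehicle. Rxrb, at 37.08 ± 1.03, 35.36 ± 0.907, 33.65 ± 1.92 and 35.54 ± 1.36 FPKM in the same order of groups, was in the range of Rara.

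**Figure D3:**
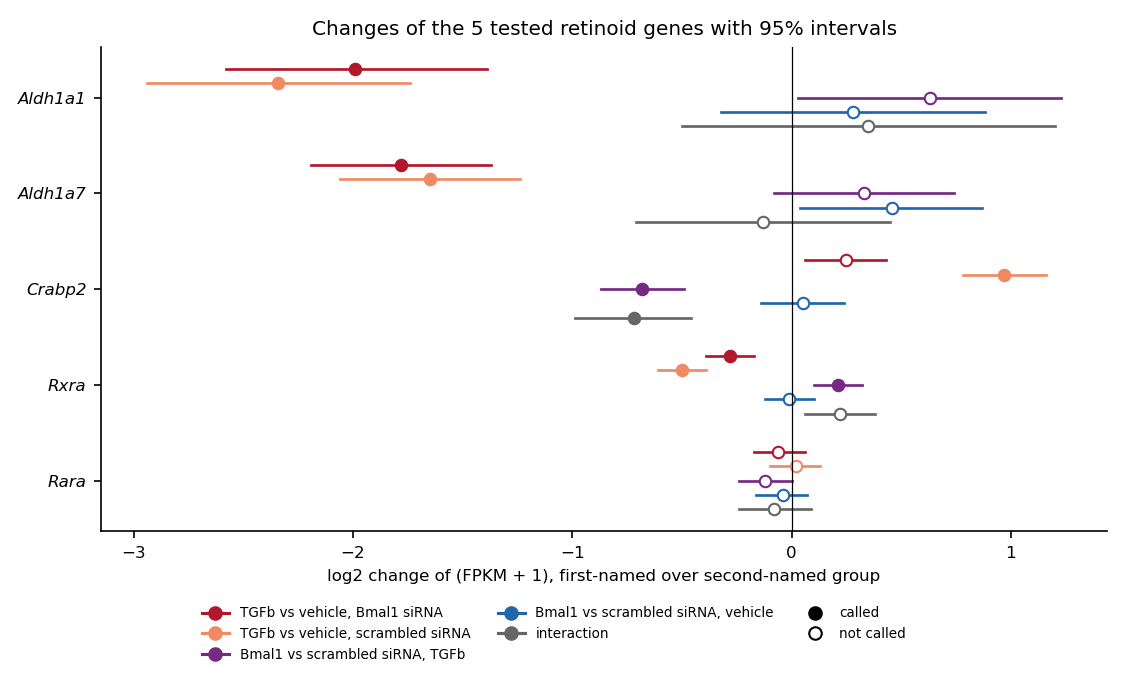
Log2 change of (FPKM + 1) with 95% intervals (x axis) of the 5 tested retinoid genes (y axis) in 4 comparisons and for the interaction, the TGFb change with Bmal1 siRNA minus that with scrambled siRNA; filled points passed an adjusted p of 0.05. Aldh1a1, Aldh1a7 and Rxra are left of 0 under TGFb with either siRNA, Crabp2 is right of 0, and the Crabp2 interaction of -0.72 is the called one.

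Counted over the 5 tested genes, 3 fell and none rose under TGFb with Bmal1 siRNA, where 19.0% of all tested genes were called, 10.1% lower and 8.90% higher. With scrambled siRNA 3 fell and 1 rose, where 45.5% were called, 29.1% lower and 16.4% higher. Between siRNAs under TGFb 1 was higher (Rxra) and 1 lower (Crabp2), where 23.2% were called, 16.0% higher and 7.16% lower. Under vehicle limma called none of the 5, 1 had an unadjusted p under 0.05 (Aldh1a7), as did 21.7% of all genes, and 0.660% of all genes were called. The interaction was called for Crabp2 alone, with a negative sign, where 14.4% of genes were called, 8.86% positive and 5.52% negative. Groups did not overlap for 4, 4, 3 and 2 of the 5 in these 4 comparisons, against 35.4%, 55.0%, 39.2% and 31.7% of all tested genes. The split of all called genes by direction moved with the scaling: median-of-ratios scaling gave 2504 higher and 2521 lower under TGFb with scrambled siRNA, where FPKM as deposited gave 1841 and 3264. Between siRNAs under TGFb it gave 972 higher and 1195 lower, against 1794 and 802, and for the interaction 575 positive and 792 negative, against 993 and 619. Scaling to equal totals gave 1276 and 890 between siRNAs under TGFb and 565 and 711 for the interaction. Medians over all tested genes were 0.00, -0.05, 0.06 and 0.01 on the log2 scale. The comparisons share libraries, so the counts are not independent of each other. Aldh1a7 and Crabp2 passed the filter through the groups where they were high, with means of 0.483 FPKM in TGFb cells and 0.398 FPKM without scrambled siRNA and TGFb. The genes were also chosen with earlier results of these data known. The counts beside the shares of all genes are therefore a description only.

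The pathway around these genes was described with 7 lists, of which 79 genes were tested. With Bmal1 siRNA 9 of them rose and 20 fell under TGFb, and with scrambled siRNA 12 rose and 36 fell, with medians of -0.04 and -0.14. Over all tested genes 8.90% rose and 10.1% fell with Bmal1 siRNA, and 16.4% rose and 29.1% fell with scrambled siRNA. Under TGFb 29 of the 79 were higher and 6 lower with Bmal1 than with scrambled siRNA (median 0.08). Of all tested genes 16.0% were higher and 7.16% lower there. Directions in the 79 genes held under the other scalings, with 12 to 13 higher and 34 to 35 lower under TGFb with scrambled siRNA. Between siRNAs under TGFb 21 to 28 were higher and 6 lower. Under vehicle 1 of the 79 was higher and none lower, with 20 at an unadjusted p under 0.05. Of all tested genes 0.660% were called under vehicle and 21.7% had an unadjusted p under 0.05. The 1 under vehicle was Aldh1l2 (log2 difference 0.43, adjusted p = 0.0384), whose call ended in 7 of the 12 fits that left out a library.

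Of 13 tested enzymes that exchange retinol and retinaldehyde, 3 fell and 1 rose under TGFb with Bmal1 siRNA, where 19.0% of all tested genes were called, and 6 fell and none rose with scrambled siRNA, where 45.5% were called, a like share. The 1 rise was not called under median-of-ratios or equal-total scaling. Dhrs3, which reduces retinaldehyde back to retinol, had 3.75, 6.83 and 4.42 FPKM with Bmal1 siRNA and TGFb, against 11.18, 16.18 and 15.82 FPKM with Bmal1 siRNA and vehicle, a log2 change of -1.38 (adjusted p = 0.000913). With scrambled siRNA Dhrs3 had 3.14, 5.68 and 6.13 FPKM under TGFb, against 10.84, 12.2 and 14.29 FPKM under vehicle, a log2 change of -1.20 (adjusted p = 0.000542). Rdh10, the main retinol dehydrogenase of embryonic retinoic acid synthesis, fell as well, by 0.39 on the log2 scale with Bmal1 siRNA and by 0.75 with scrambled siRNA. Neither differed between siRNAs under TGFb (Dhrs3 0.01, adjusted p = 0.978; Rdh10 0.09, adjusted p = 0.486) beyond the spread. Of 3 tested genes of retinoic acid clearance, Cyp2s1 fell by 0.92 with Bmal1 siRNA and by 1.05 with scrambled siRNA. The main clearance enzyme genes Cyp26a1 and Cyp26b1 stayed at or below 0.17 and 0.12 FPKM. In the fit without a filter both were higher under TGFb with scrambled siRNA, where 34.0% of genes were called (Cyp26a1 0.15, adjusted p = 0.0126, and Cyp26b1 0.10, adjusted p = 0.00292). Cyp26b1 was lower with Bmal1 than with scrambled siRNA under TGFb (-0.12, adjusted p = 0.00336), where 15.3% were called. The TGFb response of Cyp26a1 differed between siRNAs by -0.20 (adjusted p = 0.0495), where 1392 of 15720 genes were called. Cyp26a1 was listed at 0.0 FPKM in every library with scrambled siRNA and vehicle.

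Of 11 tested genes of retinoid transport and storage, 1 fell and 2 rose under TGFb with Bmal1 siRNA, and 6 fell and 2 rose with scrambled siRNA. Over all tested genes 19.0% and 45.5% were called in these comparisons. Lipe, a lipase able to hydrolyse retinyl esters, averaged 6.557 FPKM with Bmal1 siRNA and TGFb against 9.3 FPKM with Bmal1 siRNA and vehicle, and 3.647 FPKM with scrambled siRNA and TGFb against 10.49 FPKM with scrambled siRNA and vehicle. Its log2 changes were -0.47 (adjusted p = 0.0172) and -1.30 (adjusted p = 2.27e-06), and the difference between them was 0.83 (adjusted p = 0.00756). The call with Bmal1 siRNA ended without replicate 1 or 3 of its TGFb group or replicate 1 of its vehicle group. Plin2, a lipid droplet coat protein, rose by 0.18 with Bmal1 siRNA and by 0.73 with scrambled siRNA, and these responses differed by -0.55 (adjusted p = 0.000297). The smaller rise was not called in 5 of the 12 fits that left out a library.

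Of 9 other receptors and Rxr partners, 3 rose and 3 fell under TGFb with Bmal1 siRNA, and 2 rose and 3 fell with scrambled siRNA. Over all tested genes 19.0% and 45.5% were called in these comparisons. Vdr, the vitamin D receptor and a partner of Rxr proteins, had 5.28, 5.29 and 5.11 FPKM with Bmal1 siRNA and TGFb, against 6.63, 5.9 and 6.32 FPKM with Bmal1 siRNA and vehicle. With scrambled siRNA it had 10.51, 9.88 and 10.27 FPKM under TGFb, against 6.2, 6.3 and 6.35 FPKM under vehicle. It fell by 0.23 on the log2 scale with Bmal1 siRNA (adjusted p = 0.0117) and rose by 0.62 with scrambled siRNA (adjusted p = 1.23e-06), and the responses differed by -0.85 (adjusted p = 4.17e-05). The fall with Bmal1 siRNA was not called without replicate 3 of its TGFb group or replicate 1 of its vehicle group. The thyroid hormone receptor gene Thra fell by 0.45 with Bmal1 siRNA and by 0.74 with scrambled siRNA, and Nr4a2, an orphan receptor that can pair with Rxr proteins, rose by 0.63 and by 0.85. Of 14 coregulators 1 fell and none rose with Bmal1 siRNA, and 3 rose and 1 fell with scrambled siRNA. The shares of all tested genes called were again 19.0% and 45.5%. The fall with Bmal1 siRNA was not called in 10 of the 12 fits that left out a library, 1 of the 3 rises in 9 of the 12, and the fall with scrambled siRNA was not called under median-of-ratios scaling.

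Genes known as retinoic acid targets moved in both directions. Of 17 tested, 1 rose and 4 fell under TGFb with Bmal1 siRNA, and 3 rose and 9 fell with scrambled siRNA, with medians of -0.05 and -0.27. Of all tested genes 8.90% rose and 10.1% fell with Bmal1 siRNA and 16.4% rose and 29.1% fell with scrambled siRNA (medians 0.00 and -0.05). Tgm2, a transglutaminase, had 7.01, 16.09 and 10.07 FPKM with Bmal1 siRNA and TGFb, against 23.42, 27.58 and 28.65 FPKM with Bmal1 siRNA and vehicle, and 8.66, 13.81 and 11.47 FPKM with scrambled siRNA and TGFb, against 18.18, 24.48 and 26.8 FPKM with scrambled siRNA and vehicle. It fell by 1.26 with Bmal1 siRNA and by 0.98 with scrambled siRNA. Gata6, a transcription factor gene, fell by 0.52 with Bmal1 siRNA and by 1.48 with scrambled siRNA, and these responses differed by 0.96 (adjusted p = 0.000437). Hoxa5 stood at -0.10 with Bmal1 siRNA, not called, and fell by 0.85 with scrambled siRNA, with a difference of 0.75 (adjusted p = 0.00126). Sox9, also a cholangiocyte marker, stood at 0.29 with Bmal1 siRNA, not called, and rose by 0.80 with scrambled siRNA. Many other signals act on these genes, and retinoic acid itself was not measured.

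Of 12 other aldehyde dehydrogenases tested, 2 rose and 6 fell under TGFb with Bmal1 siRNA, where 8.90% of all tested genes rose and 10.1% fell, and 2 rose and 8 fell with scrambled siRNA, where 16.4% rose and 29.1% fell. Their medians were -0.22 and -0.46, beside 0.00 and -0.05 over all tested genes. Aldh3a1 had 1.28, 4.08 and 2.24 FPKM with Bmal1 siRNA and TGFb, against 5.03, 4.31 and 4.96 FPKM with Bmal1 siRNA and vehicle, and 0.46, 0.6 and 0.67 FPKM with scrambled siRNA and TGFb, against 4.95, 5.24 and 5.42 FPKM with scrambled siRNA and vehicle. It fell by 0.78 (adjusted p = 0.0153) and by 1.98 (adjusted p = 4.17e-06), and under TGFb it was higher with Bmal1 than with scrambled siRNA by 1.09 (adjusted p = 0.00202). The fall with Bmal1 siRNA was not called without replicate 3 of its TGFb group or replicate 3 of its vehicle group. Aldh1l2, a mitochondrial folate enzyme, moved the other way and rose by 0.68 with Bmal1 siRNA and by 1.14 with scrambled siRNA.

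**Figure D4:**
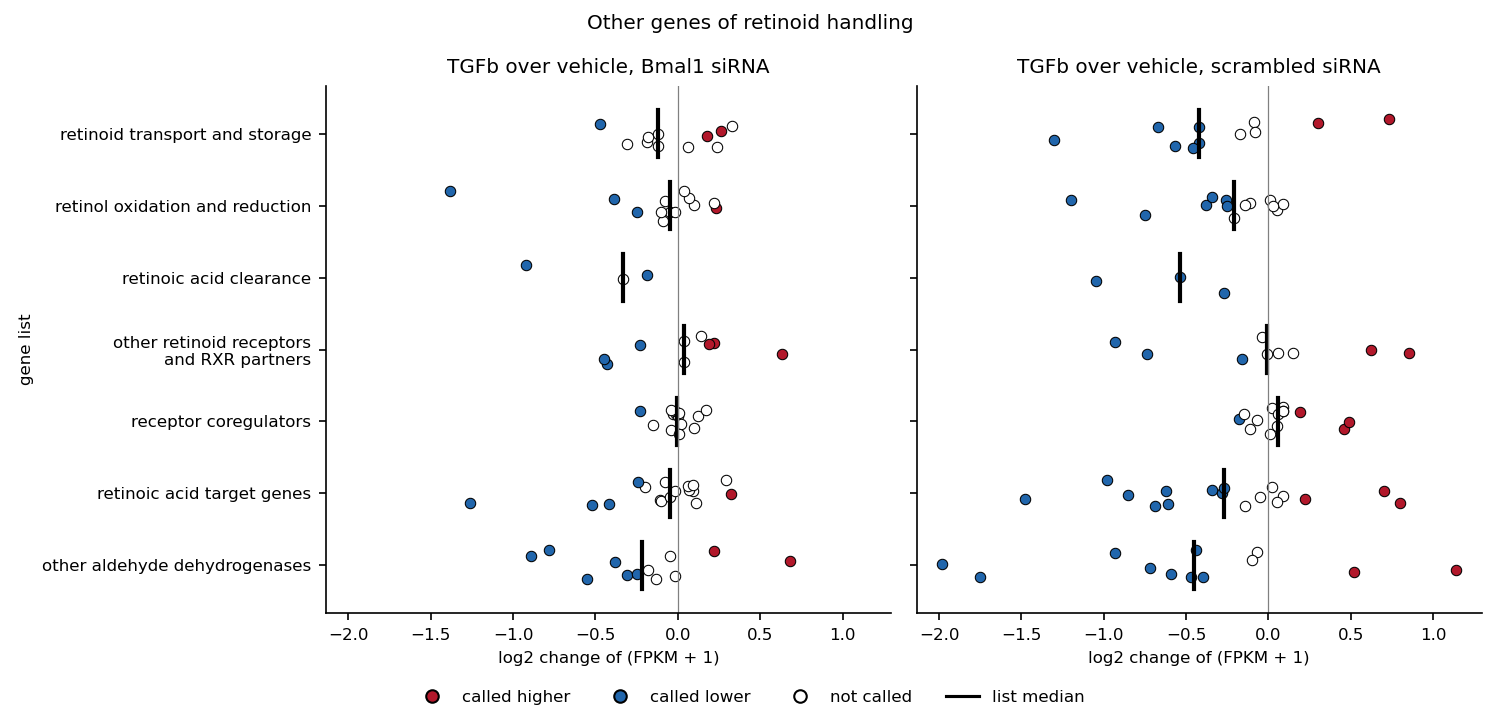
Log2 change of (FPKM + 1) under TGFb (x axis) of each tested gene in 7 lists around the retinoid genes (y axis), with Bmal1 siRNA on the left and scrambled siRNA on the right; filled points were called and vertical lines are list medians. The median of the 17 retinoic acid target genes is -0.05 with Bmal1 siRNA and -0.27 with scrambled siRNA, and that of the 12 other aldehyde dehydrogenases is -0.22 and -0.46.

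Likeness of pattern was described by Pearson's r of log2(FPKM + 1) over the 12 libraries among 10467 genes, which share library size and the split between treatments. Nearest to Aldh1a1 were Id3 (r = 0.997), Trf (0.995) and Chn2 (0.994), and nearest to Aldh1a7 were Stk26 (0.992), Tacc1 (0.991) and Id1 (0.988). Nearest to Crabp2 were Pim1 (0.984), Foxc2 (0.981) and Rasl12 (0.978). For Rxra they were Fgfr2, Tgfbr3 and Cgn (0.994 each), and for Rara, whose levels varied little, Gdap2 (0.848), Dbr1 (0.821) and Snrnp70 (0.805).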

How the data were processed

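Libraries were grouped by title, 3 per group. Per the labels' protocols, RNA below an integrity number of 6.0 was not used, the extraction kit depended on how much sample there was, and BGI made the libraries. The series text describes its triplicates as biological and no label ties them to separate cultures, so p-values reflect the variation among these libraries, technical or not. The authors deposited FPKM; the submitters' processing notes name mm10, HISAT2 2.0.4, Bowtie2 2.2.5 and RSEM among the tools. Their roles, the annotation and the use of strand were not given in those sources. Of 16290 lines in the table, 555 had no identifier (1.304% to 1.464% of the FPKM) and were not used, and 15 identifiers occurred again, of which the line with the higher mean was kept. GENCODE M21 (mm10) gave a symbol to 15694 of the 15720 identifiers left.

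limma 3.58.1 (R 4.3.3) was run on log2(FPKM + 1): group means, all 12 libraries, intensity trend, two-sided tests. It covered the 11208 genes whose mean reached 0.5 FPKM, with 8 residual and 4.99 prior degrees of freedom. The procedure was also run on simulated data with independent noise, of equal spread in every library. That setting does not cover an uneven group or linked replicates. Alternatives changed the pseudocount, filter, scaling, fit and libraries. All 9 genes were named. Of each other list up to 6 called genes per comparison, by size of change, could be named, and the 3 nearest patterns per gene. The genes and lists were chosen with earlier results of these data known.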

Additional observations from a re-analysis of the deposited data

Results flagged for a closer look

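Results in this group were picked out because the TGFb response differed between Bmal1 and scrambled siRNA in the limma interaction test (adjusted p under 0.05 over all tested genes). There were 24: Crabp2 and 23 of the 79 genes in the surrounding lists, 18 with a positive and 5 with a negative difference. Values are the log2 change under TGFb with Bmal1 siRNA minus that with scrambled siRNA, and 14.4% of all tested genes were called. No cause was tested.

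Crabp2, which reached the filter only through cells with scrambled siRNA and TGFb, had a difference of -0.72 (adjusted p = 0.00235). Among receptors Vdr had -0.85 (adjusted p = 4.17e-05), Nr1h4 0.50 (0.0272) and Nr2f2 0.36 (0.012). Among transport and storage genes Lipe had 0.83 (0.00756), Pnpla2 0.55 (0.00116), Lpl 0.43 (0.022), Scarb1 0.30 (0.0111) and Plin2 -0.55 (0.000297). Among enzymes of retinol oxidation and reduction Dhrs4 had 0.33 (0.0219), Akr1b8 0.32 (0.0133) and Retsat 0.31 (0.0283).

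Among retinoic acid targets Gata6 had 0.96 (0.000437), Hoxa5 0.75 (0.00126), Meis1 0.72 (0.000292), Hoxa2 0.51 (0.00748), Hoxa4 0.45 (0.00238) and Sox9 -0.50 (0.0293). Among other aldehyde dehydrogenases Aldh3a1 had 1.20 (0.0142), Aldh3b1 0.86 (0.0133), Aldh4a1 0.59 (0.00571), Aldh16a1 0.38 (0.00619), Aldh18a1 -0.30 (0.00699) and Aldh1l2 -0.46 (0.0211). Of the 23, 16 were called in all alternatives run, and 6, Aldh1l2, Dhrs4, Lpl, Nr1h4, Retsat and Sox9, lost the call when some library was left out. Nr2f2 lost it with scaling to equal totals.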

How the results depend on the processing

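The 25 results on single genes were recomputed under up to 26 alternatives, 635 values in all: 609 kept direction and call, 2 lost the call, 16 gained it and 8 changed sign. The sign changes were all in results not called: the Aldh1a1 interaction without replicate 2 with Bmal1 siRNA and TGFb (-0.08), the Aldh1a7 interaction without replicate 1 of that group (0.06) and with 0.1 FPKM added (0.18), Crabp2 between siRNAs under vehicle with quantile normalization (-0.03), Rxra in the same comparison with scaling to equal totals (0.02) and quantile normalization (0.00), and Rara under TGFb with scrambled siRNA without either of 2 libraries (-0.00). Leaving out 1 library the Aldh1a1 interaction ran from -0.08 to 0.73 and that of Aldh1a7 from -0.44 to 0.06. Counts of called genes were over the members tested in each setting. A mean of at least 2 FPKM left out Crabp2 (mean 0.68 FPKM), and summing the paralogs took out Aldh1a7 as a separate gene. Without a filter Aldh1a2, Aldh1a3, Rarb and Stra6 came in. Between siRNAs under TGFb the count, 2 of 5, was 1 with a mean of at least 2 FPKM or with those groups alone. It was 4 with array weights and 2 to 3 without a library. Under vehicle, 0 became 1 with those groups alone, with array weights, and without both replicate 2 TGFb libraries, and was 0 to 1 without a library. The interaction count, 1, was 0 with a mean of at least 2 FPKM, 2 with the replicate number as a block (Rxra 0.22, adjusted p = 0.0404) or with array weights, and 1 to 2 without a library. Between TGFb and vehicle the counts were 3 with Bmal1 siRNA and 4 with scrambled siRNA whichever library was left out, and 2 to 4 and 3 to 5 under the other alternatives. The called changes of Aldh1a1, Aldh1a7, Crabp2 and Rxra between TGFb and vehicle kept their call in every alternative that tested them. No label says whether same-numbered libraries were handled together. Their deviations correlated at -0.16 to 0.47, with the highest values within replicate 1 (0.47, 0.42 and 0.37). The block moved the count over all genes under vehicle, 540 with it and 74 without. Apart from genes that entered or left with the filter or the sum, the cause of these moves was not tested. FPKM gives no depth, so values near 0 carry a counting error that cannot be stated.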
